A study of Mus musculus with 8 samples.

Results

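The gene activity of mouse embryonic stem cells that had received a control siRNA was described from 3 of the 8 arrays of a knockdown study. The arrays were those titled as control; no measured value chose them. All 8 samples were total RNA of R1 cells, an established mouse embryonic stem cell line, collected 48 hours after siRNA transfection and grown in conditions that keep the cells pluripotent. The other arrays held cells given 1 of 2 siRNAs against CnAb1, a splice variant of the catalytic beta subunit of the phosphatase calcineurin: siRNA 1 on 3 arrays and siRNA 2 on 2 arrays. The sample titles carry the word differentiation, whereas the growth protocol names pluripotent conditions. All groups were transfected, so these cells are not an untreated culture, and R1 is a single line. The sources used here do not give the control siRNA's sequence or say whether feeder cells were used, and no label says that the replicates came from separate cultures, so the spread reported here may be technical.

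Pluripotent stem cells hold a small network of transcription factors, with Pou5f1 (Oct4), Sox2 and Nanog at its centre, that keeps the cells self-renewing while most genes of differentiated tissues stay silent or low. In mouse cells the cytokine LIF, acting through the receptor pair Lifr and Il6st and the transcription factor Stat3, sustains this state. Such cells divide fast, spend much of their RNA on translation and DNA replication, and rely strongly on glycolysis.

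Levels are log2 values, and 1 probe set stood for each gene: of the 28815 probe sets on the array, 21780 carried exactly 1 gene symbol, and the one with the highest mean over the 8 arrays was kept, which gave 19935 genes. The mean over the 3 control arrays ran from 4.72 to 14.39 with a median of 8.36. Odorant receptor genes, which are used by smell neurons, served as a reference for a low level: 95% of their 1027 measured members lay at or below 7.31. A gene at or below that value was called dim, a gene among the top 10% (at or above 11.48) bright, and a gene between them middling. By these limits 1994 genes were bright, 12177 middling and 5764 dim. These are 10%, 61.1% and 28.9% of all genes, the shares beside which counts of families and lists are to be read. Probe sets differ in how strongly they respond, so a band or a percentile places a probe set among all others and is not an amount of RNA; a dim probe set is not proof that a gene was silent.

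**Figure D1:**
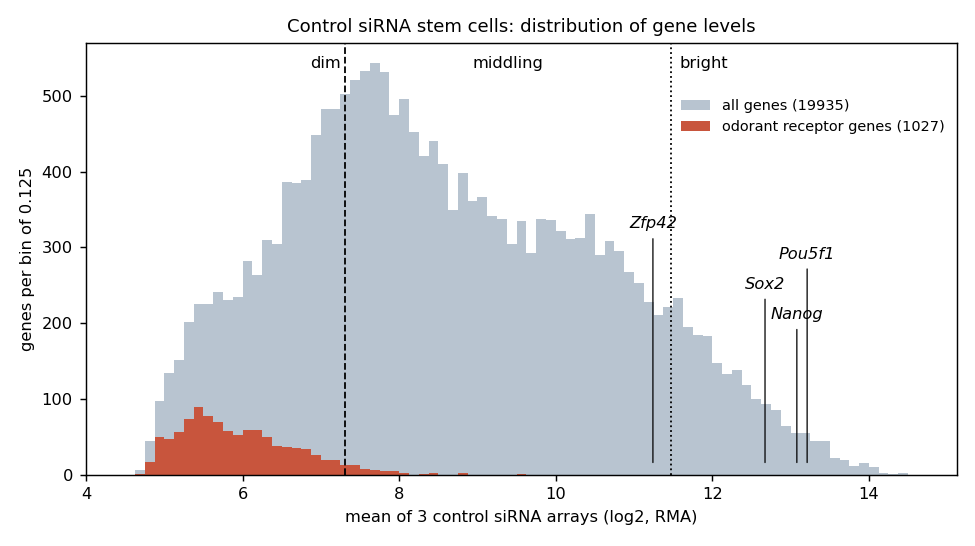
Number of genes (vertical axis, per narrow bin) by mean level over the 3 control siRNA arrays (horizontal axis, log2), for all 19935 genes in grey and the 1027 odorant receptor genes in red. The dashed line is the reference at 7.31 and the dotted line the start of the bright band at 11.48; Pou5f1, Nanog and Sox2 stand to the right of the dotted line and Zfp42 just to its left.

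The 3 arrays gave nearly the same order of genes. Pearson's r across the 19935 genes, which are not independent replicates, lay between 0.9985 and 0.9989 for the 3 pairs of arrays, and the median gene had an SD of 0.056. The spread was smaller at the top: the median SD was 0.036 among bright, 0.055 among middling and 0.067 among dim genes. On all 3 arrays taken singly, 96.5% of bright, 96.8% of middling and 94.7% of dim genes lay in their own band. Near the limits the bands say little: 812 genes lay within 0.1 of the reference and 353 within 0.1 of the bright limit, where Slc6a8 (a creatine transporter) and Ola1, both at 11.478, were the last genes inside and Fgfr1 at 11.477 and Polr2d at 11.475 the first outside. Ppp3cb, the gene of which CnAb1 is a splice variant, read 10.70, 10.55 and 10.64, which is middling. Its probe set is annotated to the gene and not to the variant, and its mean was 10.76 with siRNA 1 and 11.11 with siRNA 2, so it does not check the knockdown of CnAb1.

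Of the 4 markers of the labelled cell type 3 were bright and the fourth lay just under the limit. Pou5f1 read 13.22, 13.23 and 13.18 on the 3 control arrays, a mean of 13.21 ± 0.03 (SD, n = 3) that placed it at percentile 99.1. Nanog read 13.08, 13.09 and 13.07, a mean of 13.08 ± 0.01 (SD, n = 3) at percentile 98.8. Sox2 read 12.61, 12.72 and 12.69, a mean of 12.67 ± 0.06 (SD, n = 3) at percentile 97.5. These 3 genes encode the central factors of the network, and none of them came near the bright limit on any array. Zfp42 (Rex1), a marker of the naive state, read 11.33, 11.29 and 11.10, a mean of 11.24 ± 0.12 (SD, n = 3) at percentile 87.9. It was middling on each array and lowest on control 3, where 3 of the 4 markers had their lowest value.

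The start regions of these 4 genes are printed because these genes mark the labelled cell type. Each window runs from 60 bases before to 20 bases after the RefSeq transcript start (sequences from RefSeq, build GRCm38.p6, written 5′ to 3′ on the gene's strand). Capitals mark matches to a GC box (GGGCGG) or a CCAAT box (CCAAT), searched on both strands, so that ATTGG is a CCAAT box on the opposite strand.
Pou5f1, chr17:35505972-35506051, plus strand: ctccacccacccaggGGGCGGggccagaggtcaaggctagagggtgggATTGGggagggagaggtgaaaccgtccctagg
Sox2, chr3:34649935-34650014, plus strand: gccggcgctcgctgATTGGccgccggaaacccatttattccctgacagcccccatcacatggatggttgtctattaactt
Nanog, chr6:122707429-122707508, plus strand: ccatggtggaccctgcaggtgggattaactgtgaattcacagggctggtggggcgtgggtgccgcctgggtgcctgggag
Zfp42, chr8:43306990-43307069, minus strand: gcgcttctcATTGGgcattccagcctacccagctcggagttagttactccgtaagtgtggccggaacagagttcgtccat
Pou5f1 had both motifs in this window, Sox2 and Zfp42 only the CCAAT box, and Nanog neither. Over the full 300 bases examined per promoter (250 before and 50 after the start), the window of Sox2 held 27 CpG dinucleotides, those of Pou5f1 and Zfp42 held 11 each and that of Nanog 4. A match is a run of letters and not a shown binding site.

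Beyond these markers, the wider pluripotency list had the highest median of the developmental lists: 21 of 28 measured genes were bright, 7 middling and none dim, against 1994 bright of all 19935 genes, with a list median of 12.24 against 8.36. Dppa5a, an RNA-binding protein of early embryos and stem cells, led with 13.77, 13.69 and 13.76 and was the 45th gene of the array by level. Trim28, a corepressor that silences retroviral elements, averaged 13.59, Utf1, a chromatin factor of undifferentiated cells, 13.36, and Nr0b1 (Dax1), an orphan nuclear receptor, 13.24. None of the 3 fell below 13.21 on any control array. Esrrb, Tfcp2l1 and Klf5, transcription factors tied to the naive state, averaged 12.62, 12.56 and 12.95. Fgf4, the growth factor these cells secrete, averaged 12.25, and Tdgf1 (Cripto), the coreceptor for Nodal, 13.04.

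**Figure D2:**
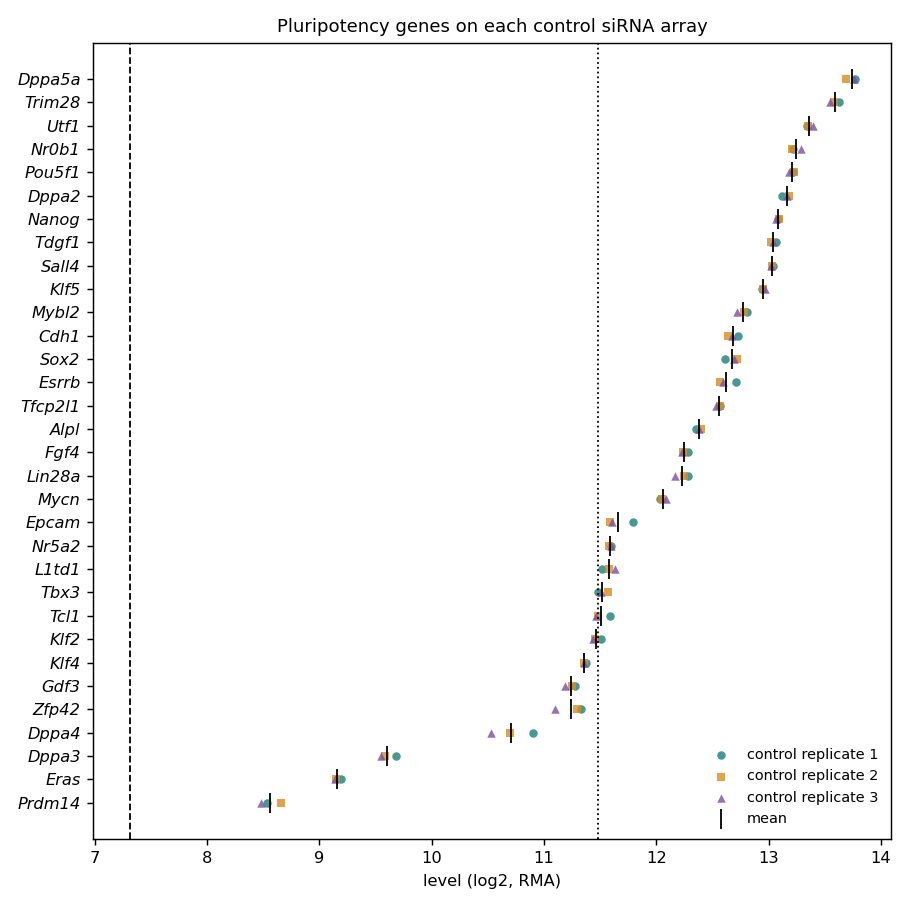
Level (log2, horizontal axis) of each measured gene of the 4 state markers and the wider pluripotency list on the 3 control siRNA arrays (circles, squares and triangles) with their mean (bar). The dotted line is the bright limit and the dashed line the reference; 24 genes have means above the dotted line, from Dppa5a at 13.74 down to Tcl1 at 11.51, and Dppa4 has the widest spread of the genes below it.

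The 7 middling members covered a wide range. Klf2 averaged 11.46 and Klf4 11.36, both Krüppel-like factors that support naive self-renewal and both close below the limit. Gdf3, a TGF-beta family ligand, averaged 11.24. Dppa4 read 10.90, 10.70 and 10.53, a mean of 10.71 ± 0.18 (SD, n = 3), and its spread was several times the median SD of 0.056. Lower still were Dppa3 (Stella) at 9.60, the Ras-like Eras at 9.16 and Prdm14, a repressor of differentiation signals, at 8.56 ± 0.09 (SD, n = 3), not far above the median of all genes.

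Nanog stands in a stretch of the genome that also carries Gdf3, Dppa3 and the glucose transporter Slc2a3, and this stretch was chosen for description after the values were seen. In the RefSeq order of measured genes, Nanog at 13.08 and Slc2a3 at 13.47 were adjacent and bright. Dppa3 at 9.60 lay on Nanog's other side, followed by Gdf3 at 11.24 and Apobec1 at 8.62. Beyond Slc2a3 came Foxj2 at 9.74 and C3ar1, a complement receptor of myeloid cells, at 7.44. Across the genome 27.2% of 1989 bright genes had a bright neighbour on at least 1 side, against 18.8% of all 19809 genes placed between measured neighbours. For dim genes the shares were 68.6% of 5700 and 43.5%. Many receptor families lie in clusters of copies, and these were counted like other genes.

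Genes of the formative and primed states, the steps that follow the naive state, stood lower than the pluripotency list. Of 15 genes 2 (13.3%) were bright, near the 10% over all genes, and 13 middling. Cldn6, a tight junction protein, read 12.52, 12.34 and 12.42, and Nodal, the ligand that prepares the epiblast for germ layers, read 11.82, 11.82 and 11.87. Otx2, a transcription factor that drives exit from the naive state, read 11.24, 11.04 and 11.09. Zic2 averaged 11.12, Pou3f1 (Oct6) 9.99 and Fgf5, the classical epiblast marker, 9.94. None of the 15 was dim, against 28.9% of all genes, and the list median was 9.94 against 8.36.

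No gene of the germ layer, trophectoderm and germ cell lists was bright. Over all genes 10% were bright, 61.1% middling and 28.9% dim. Of 19 mesoderm genes 16 were middling and 3 dim, with Eomes, a T-box factor of the primitive streak, highest at 10.27 and Meox1 and Tcf21 among the dim at 7.24 and 7.02. Of 18 endoderm genes 15 were middling and 3 dim: Lama1 averaged 9.73 and Gata6, a driver of primitive endoderm, 9.63, whereas Afp and Ttr, secreted products of yolk sac and liver, averaged 6.87 and 6.32. Of 17 neuroectoderm genes 13 were middling and 4 dim, from Gbx2 at 10.08 to Dcx, a protein of migrating neurons, at 6.70. Gbx2 is also used by naive stem cells. The medians of these lists, 8.34, 8.45 and 8.49, lay close to the median of all genes, 8.36.

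In the trophectoderm list 12 of 17 genes were middling and 5 (29.4%) dim, close to the 28.9% dim over all genes. Krt8, a keratin of simple epithelia, was highest at 11.43, 11.24 and 11.30, followed by the homeobox gene Rhox9 at 10.84 and Tfap2c at 10.49. Cdx2, the factor that opposes Pou5f1 in the first lineage choice, averaged 7.78, and the placental genes Psg17, Tpbpa and Ctsq were dim at 5.55, 5.50 and 5.44. In the germ cell list 15 of 19 genes were middling and 4 (21.1%) dim. It was led by the receptor Kit at 10.92, the piRNA factor Mael at 10.37 and the meiotic axis protein Sycp3 at 10.11. Tnp1, a sperm chromatin protein, was lowest at 6.98.

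Members of the LIF pathway were measured at bright to middling levels, with none dim, against 28.9% dim over all genes. Stat3 read 12.03, 11.98 and 11.98, Gab1, an adaptor for receptor signals, averaged 12.31 ± 0.03 and the kinase Pim1 11.52 ± 0.09 (SD, n = 3 each). These were the 3 bright genes of 15 (20%), against 10% over all genes. Of the receptors, Il6st averaged 11.39 and Lifr read 10.91, 10.92 and 10.94. Osmr, the alternative partner of Il6st, read 7.53, 7.31 and 7.64 and was the lowest of the list. Socs3, a feedback inhibitor that Stat3 induces, averaged 10.26, and the ligand Lif itself 8.51. Jak1 averaged 10.82 and its relatives Tyk2 and Jak2 8.91 and 8.31.

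None of 25 receptors for BMP, Nodal, FGF and other growth factors was bright, although Fgfr1, at 11.49, 11.46 and 11.47, fell just short of the limit. Bmpr1a, which carries BMP signals in stem cells, averaged 10.99, Tgfbr1 10.64 and Fgfr2 10.41. Acvr1c and Bmpr1b were the 2 dim members (8%) at 6.64 and 6.90. Over all genes 10% were bright and 28.9% dim. Among 30 Wnt ligands and Frizzled receptors none was bright and 2 (6.67%) were dim. The receptors Fzd7 and Fzd5 led at 11.37 and 10.48, and Wnt8b was lowest at 6.82.

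Chromatin genes separated by subunit choice. The BAF complex moves nucleosomes, and its composition in stem cells differs from that in neurons and muscle. Of 14 subunits listed for the stem cell form 9 were bright and 5 middling: Actl6a read 13.35, 13.36 and 13.33, Arid1a averaged 12.41, Smarcc1 12.34 and the ATPase Smarca4 (Brg1) 12.20. Of 7 subunits listed for other tissues all were middling, among them the alternative ATPase Smarca2 (Brm) at 7.63, Smarcc2 at 9.54 and the neuronal actin-like subunit Actl6b at 7.40. Ss18 at 9.46 was the lowest subunit of the stem cell list, below the highest of the other list, Dpf1 at 9.74. Levels of different probe sets cannot be set against each other as amounts, so these positions are not subunit ratios. Both lists were made from the known use of each subunit, so the split describes the choice as well as the cells.

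Of 8 enzymes and cofactors of DNA methylation 5 (62.5%) were bright, against 10% over all genes. Tet1, which oxidises methylcytosine, read 13.20, 13.29 and 13.30, and Dnmt3l, a cofactor of the de novo methyltransferases, read 13.20, 13.09 and 13.09. Dnmt1, which copies methylation at replication, averaged 11.99, its partner Uhrf1 11.92 and Dnmt3b 11.88. Dnmt3a at 10.66, Tet2 at 10.79 and Tet3 at 8.67 were middling.

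Glycolysis was among the brightest pathways, with 12 of 13 genes of the common isozymes bright, against 10% over all genes, and a median of 13.47. Ldha, which turns pyruvate into lactate, read 14.16, 14.14 and 14.14 and was the 6th gene of the array. Aldoa averaged 14.00, the glucose transporters Slc2a1 and Slc2a3 13.79 and 13.47, and phosphofructokinase Pfkp 12.14 ± 0.15 (SD, n = 3). Hk2 was middling at 11.14 ± 0.14 (SD, n = 3). Hk1 is counted among the 12, but its value, 13.58, is uncertain. Its probe set carried no RefSeq accession, and a second probe set whose RefSeq accessions belong to Hk1 read 9.98, in the middling band. Gapdh, Eno1 and Gpi1 are not analysed here, since no probe set named them alone.

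Isozymes typical of particular tissues stood lower. Only Ldhb, the heart-type lactate dehydrogenase subunit, was bright among 13, at 12.11, and 9 were middling and 3 dim. Pgk2, Slc2a2 and Gapdhs, used in sperm or in liver and pancreas, were the dim ones at 6.06, 6.99 and 7.15. The TCA cycle held 9 bright and 7 middling genes, from Mdh2 at 13.27 and Cs (citrate synthase) at 13.04 to Dld at 10.13. Control 1 gave the highest value for 14 of the 16 TCA genes and 11 of the 13 common glycolysis genes, by small amounts. Its TCA genes lay on average 0.061 above their 3-array means and its glycolysis genes 0.05. Over all 19935 genes controls 1, 2 and 3 lay on average 0.022, -0.014 and -0.007 from these means. Control 1 was thus also the highest on average over all genes, though by less than for the TCA and glycolysis genes. Whether the pattern is particular to metabolic genes was not tested.

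The genes with the highest levels served translation, the cytoskeleton, folding and metabolism. Rn7sk, the small nuclear RNA that restrains transcription elongation, and Eef1a1, the factor that brings aminoacyl-tRNA to the ribosome, both averaged 14.39 and were followed by Actb, cytoplasmic actin, at 14.38. Eef2, the translocation factor, averaged 14.12, the chaperone Hspa8 14.11, the redox protein Txn1 14.17 and the initiation factors Eif4a1 and Eif5a 14.03 and 14.02. Of the 100 brightest genes 21 encoded cytosolic ribosomal proteins (of 62 measured), 5 solute carriers (of 364), 3 initiation factors (of 49) and 2 elongation factors (of 6). The proteasome, heat shock, complex IV, ATP synthase and hnRNP families gave 2 each. Others of the 30 brightest were the oxidase subunit Cox6c at 14.02, Pabpc1, which binds poly(A) tails, at 13.95, the ubiquitin-conjugating enzyme Ube2d3 at 13.91 and Tpt1 at 13.90, besides the ribosomal protein genes Rps15, Rps20, Rps2, Rpl19, Rpl41 and Rpl21, between 13.88 and 13.99. The fourth gene by level is named Baiap2l1 in the annotation, at 14.25, and that name is doubtful: of its 3 probe sets, the one with a matching RefSeq accession read 9.13. Of the 100 brightest genes by mean, 3 lacked a matching RefSeq accession: Baiap2l1, Hk1 and COX2, the mitochondrially encoded oxidase subunit.

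Of 62 cytosolic ribosomal protein genes 51 were bright, 10 middling and 1 dim, with a median of 13.24. Rps6, the subunit phosphorylated after growth signals, read 14.00, 14.09 and 14.10, and Rpl28 read 13.98, 13.97 and 14.03. Rpl3l, the copy used in heart and skeletal muscle, was the dim one at 7.01, and Rpl39l, a copy used in the male germ line, and Rplp2 were low at 8.80 and 8.95. Rps6 had 8 probe sets, which read from 13.63 to 14.06. Ribosomal protein genes have many near-identical processed copies in the genome, so a probe set named for one may also read RNA of a copy; Rps4l at 12.68 and Rpl10l at 11.51, close copies of Rps4x and Rpl10, stand under this limit.

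Many ribosomal protein messages begin with a pyrimidine-rich stretch, the TOP motif, by which growth signals control their translation. The 4 brightest ribosomal protein genes that held CTTT on the sense strand within 10 bases of the start are printed, since their starts show this stretch (RefSeq, build GRCm38.p6, 60 bases before to 20 after the start, 5′ to 3′ on the gene's strand). Capitals mark CTTT, an ETS motif (CCGGAAG) in Rps10 and a cyclic AMP response element (TGACGTC, which overlaps its own reverse) in Fau.
Rps6, chr4:86857348-86857427, minus strand: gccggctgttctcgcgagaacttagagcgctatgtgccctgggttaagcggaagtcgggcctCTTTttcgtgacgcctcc
Rpl28, chr7:4792905-4792984, plus strand: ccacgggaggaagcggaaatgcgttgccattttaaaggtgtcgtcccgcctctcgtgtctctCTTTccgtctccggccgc
Rps10, chr17:27635225-27635304, minus strand: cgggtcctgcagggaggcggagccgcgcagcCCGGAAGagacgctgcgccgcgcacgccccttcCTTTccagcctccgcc
Fau, chr19:6057887-6057966, plus strand: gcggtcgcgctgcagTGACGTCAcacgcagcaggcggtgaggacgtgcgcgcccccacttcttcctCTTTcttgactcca
Their levels were 14.06, 13.99, 13.74 and 13.68. CTTT lay in this place in 11 of 50 ribosomal protein promoters against 6.72% of all 15561 promoters examined, and the ETS motif lay in 18 of the 50 against 12.5% of all. TATAAA at 40 to 20 bases before the start, on the sense strand, was found in none of the 50 and in 2.47% of all.

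The other parts of the translation machinery were bright less uniformly. Of 49 initiation factor genes 30 were bright and 19 middling, from Eif4a1 at 14.03 to Eif4e3 at 7.59. Of 31 aminoacyl-tRNA synthetase genes 15 were bright and 16 middling; Rars and Iars, which charge arginine and isoleucine, led at 13.38 and 12.98, and the 3 lowest, Wars2, Hars2 and Lars2, all serve mitochondria. Mitochondrial ribosomal proteins were mostly middling, 59 of 78 with 19 bright, from Mrpl40 at 12.84 to Mrpl41 at 8.19. Ribosome biogenesis had 20 bright and 5 middling of 25 genes, led by nucleolin (Ncl) at 13.36, fibrillarin (Fbl) at 13.25 and Nop56 at 13.21, with Rrs1 lowest at 9.26.

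Families of protein folding and turnover differed in their share of bright genes. The TRiC chaperonin, which folds actin and tubulin, had 8 of 9 genes bright, between Cct8 at 12.16 and Cct2 at 13.44. Cct6b, the testis form of 1 subunit, was the exception at 6.52, 6.54 and 6.62, whereas Cct6a averaged 13.31. Of 27 heat shock protein genes 10 were bright, 16 middling and 1 dim, from Hspa8 at 14.11 and Hsp90aa1 at 13.90 to the testis gene Hspa1l at 6.88. Of 40 proteasome genes 22 were bright and 18 middling. Psmb3 and Psmb5 led at 13.87 and 13.67. The lowest were forms of particular tissues: Psmb11 of the thymus at 7.33, the immune form Psmb8 at 7.40 and Psma8 of the testis at 8.25.

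Among RNA processing families the share of bright genes differed. The SR splicing factors had 9 of 10 bright, led by Srsf3 at 13.53 and Srsf2 at 13.21, with Srsf12 apart at 7.83. The hnRNP proteins had 13 of 17 bright, led by Hnrnpab at 13.73, and Sm and other snRNP proteins 14 of 23, with the other 9 middling. Small nucleolar RNAs, many of which guide modification of ribosomal RNA, were spread from Snora52 at 13.61 to Snord61 at 5.59, with 12 bright, 35 middling and 4 dim of 51; they often sit in introns of host genes, and signal from a host's unspliced RNA was not separated here.

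In energy metabolism the ATP synthase had 13 of 17 genes bright, led by Atp5b at 14.05 and Atp5d at 13.96, and complex IV 9 of 17. The muscle and germ line forms of complex IV were low: Cox6a2 averaged 7.78, Cox8b 7.44 and Cox7b2 6.34, the only dim member. Complex I subunits and assembly factors were bright in 14 of 43 and middling in 29, from Ndufs7 at 13.32 to the assembly factor Ndufaf5, which read 8.06, 8.07 and 7.87. Complex III had 5 of 9 bright, led by Uqcrb at 13.16.

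Ubiquitous and tissue isoforms fell in different bands. All 15 measured genes of a list of ubiquitous isoforms were bright, and of 20 tissue isoforms 2 were bright, 15 middling and 3 dim; the bright ones were Rps4l and Rpl10l, under the limit on near-identical copies given above. The values of a pair come from different probe sets and are positions, not amounts. Eef1a1 averaged 14.39 and Eef1a2 of muscle and neurons 8.92. Tubb5 averaged 14.02 and Tubb1 of platelets 8.57. Ckb averaged 12.97 and the muscle creatine kinase Ckm 8.29. Lmnb1 averaged 12.12, and Lmna, the lamin that rises with differentiation, read 9.32, 9.14 and 9.27. Both lists were made from the known tissue use of each form, so the split describes the choice as well as the cells.

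**Figure D3:**
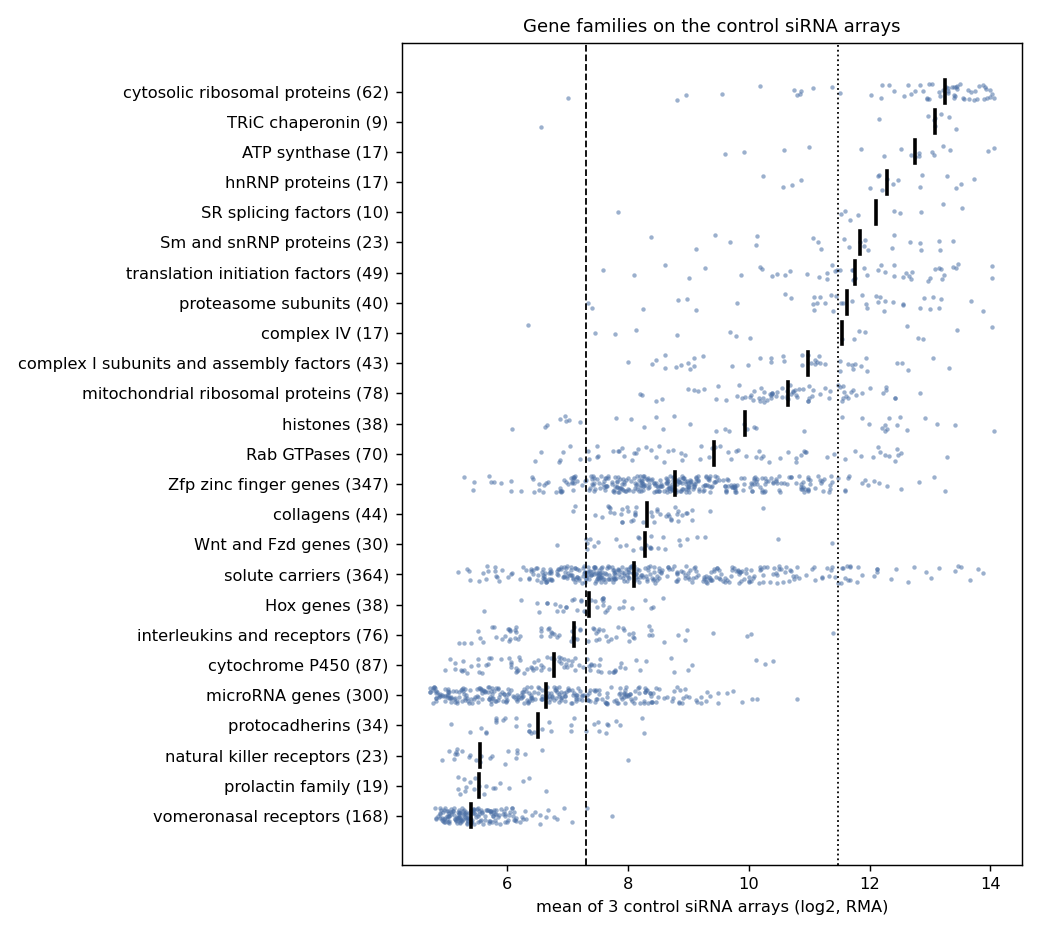
Mean level over the 3 control siRNA arrays (log2, horizontal axis) of every measured member (points) of 25 gene families, with the family median (bar) and the number of members in brackets. The dashed line is the reference and the dotted line the bright limit; cytosolic ribosomal proteins have a median of 13.24 and vomeronasal receptors one of 5.40.

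Cell division genes were well represented. Of 42 DNA replication genes 23 were bright, 19 middling and none dim, with a median of 11.58. Pcna, the sliding clamp of the replicative polymerases, read 13.87, 13.90 and 13.87. Rfc5, of the clamp loader, averaged 13.32, and the helicase subunits Mcm7 and Mcm5 13.12 and 13.08. The lowest were Cdc6, which loads the helicase, at 9.75 and Gins3, of the same helicase, at 9.87. Of 38 histone genes 15 were bright, 15 middling and 8 dim: H4c4 read 14.04, 14.04 and 14.10 and H3c7 5.85, 6.03 and 6.36. Histone genes of a class are nearly identical, and the probe sets that could not be assigned to 1 symbol are left out of these counts.

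Large families are given beside all genes, of which 10% were bright, 61.1% middling and 28.9% dim. Of 347 genes named Zfp, which mostly encode DNA-binding zinc finger proteins, 15 were bright, 290 middling and 42 dim; Zfp706, Zfp207 and Zfp57, the last a keeper of genomic imprints, averaged 13.24, 13.06 and 12.81. Of 364 solute carriers 30 were bright, 238 middling and 96 dim, shares close to those over all genes, led by Slc25a5, which exchanges ADP and ATP across the mitochondrial membrane, at 13.88. Slc2a1 and the amino acid transporter Slc38a2 followed at 13.79 and 13.65. The 13 bright of 70 Rab genes, which direct vesicle traffic, were led by Rab1a at 13.28. The Rab3c and Rab27b genes of secretory cells were dim at 6.46 and 6.55. Of 44 collagens none was bright and 42 were middling, and Col18a1 was highest at 10.23.

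Families of specialised tissues held no bright gene. Hox genes, which pattern the body axis, were split evenly, 19 middling and 19 dim of 38, and even the highest, Hoxb9, averaged 8.58. Of 127 voltage-gated and related ion channel genes 80 were middling and 47 dim, with Kcnk5 at 11.35 and Cacng7 at 11.08 at the top. Of 34 protocadherins 24 were dim, as were 59 of 87 cytochrome P450 genes; the exceptions at the top of the P450 family were Cyp51, an enzyme of cholesterol synthesis found in most cells, at 10.41 and Cyp2s1 at 10.26. Of 48 serpins 39 were dim, and Serpinh1, the collagen chaperone, averaged 9.35.

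Immune families were low as well, each with a dim share above the 28.9% over all genes. The smallest dim share was that of chemokines and their receptors, 25 of 48, with the other 23 middling. Dim members made up 22 of 23 natural killer receptor genes, 14 of 19 antibody and T cell receptor segments, 35 of 42 defensins, 10 of 14 type I interferons and 43 of 76 interleukin and interleukin receptor genes. Il6st, the LIF coreceptor counted there by its name, was the highest interleukin family gene at 11.39 and Il6 the lowest at 5.20. In the skin families 30 of 44 keratin-associated proteins and 28 of 32 cornified envelope genes were dim, while 29 of 48 keratins were middling, led by Krt8 and Krt18 of simple epithelia at 11.32 and 10.34.

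Other chemosensory receptor families, which the reference did not use, were read against it. Of 168 vomeronasal receptor genes 166 were dim, with a median of 5.40, and of 37 taste receptor genes 34 were dim. The 3 middling taste genes, Tas1r1, Tas1r3 and Tas1r2 at 7.66, 7.56 and 7.43, all belong to the sweet and umami group. Trace amine receptors were dim in 12 of 13 and the prolactin family, placental hormones of rodents, in 19 of 19. The odorant receptors themselves set the reference, so that 52 of 1027 lay above it by construction; Olfr1174 was the highest at 9.57.

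Lists of adult tissues held 1 bright gene, in the neuron list, and differed in their share of dim genes, which was 28.9% over all genes. Of 13 liver genes 10 were dim, among them albumin (Alb) at 5.85 and Cyp3a11 at 5.13. Of 17 muscle genes 13 were middling and 4 dim, from desmin (Des) at 9.30 to Myh1 at 6.54. Of 8 erythroid genes 4 were dim, with embryonic globin Hbb-bh1 at 5.70. The neuron list was also middling to dim, in 14 of 15, but Stmn2, a microtubule regulator of growing axons, was bright at 13.39, 13.37 and 13.38. Nefl and Nefh, neurofilament subunits, were its next members at 10.99 and 10.26, and Gria2, a glutamate receptor, was lowest at 5.50.

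Markers of other cells that a stem cell culture may hold were examined as whole lists. Of 17 fibroblast genes, which feeder cells would express, Vim at 13.44 and Fn1 at 13.31 were bright, 13 were middling and 2 dim. The bright share, 11.8%, was near the 10% over all genes, and the dim share was 11.8% against 28.9%. Col1a1 averaged 9.35, Thy1 9.36, Dcn 9.24 and Postn 8.69, while Lum was dim at 5.93 and so was Fap at 6.08, 5.84 and 6.06. The mean of the 17 genes was 9.06, 8.98 and 9.10 on controls 1, 2 and 3; control 3 was highest for 12 genes and control 2 lowest for 12. Vim and Fn1 are also expressed by many embryonic cells, and the part of feeder RNA in these levels was not tested.

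Of 11 macrophage and blood genes none was bright, 8 were middling and 3 (27.3%) dim, near the 28.9% dim over all genes. Lyz2, lysozyme of macrophages, read 10.63, 10.73 and 10.14, a mean of 10.50 ± 0.32 (SD, n = 3), and Cd68 averaged 10.10. The pan-leukocyte gene Ptprc read 7.36, 7.30 and 6.98, and Adgre1 (F4/80) 7.45, 7.48 and 6.97, both dim by their means. Control 3 was lowest for 9 of the 11 genes, and the mean of the list was 8.24, 8.25 and 7.998 on the 3 arrays. The share of such cells was not tested.

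R1 is a male line, and of 7 measured Y-linked genes 4 were middling and 3 dim. Eif2s3y at 10.40, 10.39 and 10.34 and Uty at 9.76, 9.86 and 9.72 were the highest, Sry read 8.29, 8.42 and 8.49, and Zfy1 averaged 8.01. Kdm5d at 6.51, Usp9y at 5.60 and Zfy2 at 4.95 were dim. Xist, the RNA that silences an X chromosome in female cells, averaged 7.38, just above the reference. Whether the dim Y-linked probe sets respond to their genes was not tested.

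MicroRNA genes as a family were low: of 300 genes none was bright, 101 were middling and 199 dim. The arrays measured total RNA on a whole-transcript design, so these values are not levels of mature microRNAs. The mature sequences of the genes with the highest values are printed to identify them (RefSeq, build GRCm38.p6, 5′ to 3′), with the seed, bases 2 to 8, in capitals. Mature sequences were matched for 270 of the 300 genes.
mmu-miR-692, chr17:6895259-6895279, minus strand: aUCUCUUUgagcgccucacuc
mmu-miR-139-5p, chr7:101475382-101475403, plus strand: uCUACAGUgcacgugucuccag
mmu-miR-139-3p, chr7:101475418-101475439, plus strand: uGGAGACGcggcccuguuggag
mmu-miR-346-5p, chr14:34894624-34894646, plus strand: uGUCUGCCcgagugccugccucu
mmu-miR-346-3p, chr14:34894662-34894683, plus strand: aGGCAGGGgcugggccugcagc
mmu-miR-6516-5p, chr11:117077370-117077391, plus strand: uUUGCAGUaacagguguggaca
mmu-miR-6516-3p, chr11:117077412-117077433, plus strand: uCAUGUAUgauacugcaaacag
No seed recurred among these. Mir692-1 read 10.65, 10.80 and 10.93, Mir139 10.14, 10.10 and 10.14, and Mir346 9.92, 9.80 and 9.90. Mir6516 averaged 9.74, and Mir598, next after Mir139 in order, 10.06.

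Sets of microRNAs known from stem cells and from differentiation were looked up after the values were seen. The miR-302 group is abundant in primed pluripotent cells, let-7 accumulates as cells differentiate and is held back by Lin28a, and the miR-17 cluster supports proliferation. Their members are grouped by seed, which is shared by let-7e, let-7i and let-7d, by miR-302b and miR-302d, by miR-17 and miR-20a, and by miR-19a and miR-19b (RefSeq, build GRCm38.p6, seed in capitals).
mmu-let-7e-5p, chr17:17830366-17830387, plus strand: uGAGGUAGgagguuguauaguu
mmu-let-7i-5p, chr10:122985698-122985719, minus strand: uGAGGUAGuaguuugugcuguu
mmu-let-7d-5p, chr13:48536078-48536099, minus strand: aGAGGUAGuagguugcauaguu
mmu-miR-302b-3p, chr3:127545275-127545297, plus strand: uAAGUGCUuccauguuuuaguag
mmu-miR-302d-3p, chr3:127545665-127545687, plus strand: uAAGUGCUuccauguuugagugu
mmu-miR-17-5p, chr14:115043684-115043706, plus strand: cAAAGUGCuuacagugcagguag
mmu-miR-20a-5p, chr14:115044183-115044205, plus strand: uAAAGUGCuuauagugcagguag
mmu-miR-19a-3p, chr14:115044048-115044070, plus strand: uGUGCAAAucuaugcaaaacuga
mmu-miR-19b-3p, chr14:115044358-115044380, plus strand: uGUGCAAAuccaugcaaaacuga
All 4 Mir302 genes were dim, between 5.31 and 6.34. Of 9 let-7 genes 3 were middling, Mirlet7e at 8.28, Mirlet7i at 8.03 and Mirlet7d at 7.97, and 6 dim. Of 5 genes of the miR-17 cluster Mir18 at 8.33 and Mir19b-1 at 7.77 were middling and 3 dim. Lin28a, which blocks let-7 maturation, was bright at 12.23.

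Promoters of bright genes were richer in CpG than those of dim genes. For 15561 genes with a promoter in RefSeq, the median number of CpG dinucleotides in the 300 bases was 24 for bright, 19 for middling and 3 for dim genes, against 15 for all. The observed over expected CpG ratio was at least 0.6, a usual limit for a CpG island, in 86.4% of bright, 64.4% of middling and 13.2% of dim promoters, and in 52.4% of all. With the chemosensory receptors left out the share for dim genes was 17.1%. The CpG median rose with each step of 10% of the genes by level, from 1 in the lowest to 24 in the highest. These are descriptions over genes, many of which share ancestry and sequence. A promoter here is the stretch around the RefSeq transcript start. For an entry that begins at the coding region this stretch may not be the promoter, which limits CpG and motif counts alike. How many entries do so was not tested.

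Among short motifs the GC box (GGGCGG, both strands) lay in 70.6% of bright, 61.1% of middling and 17.6% of dim promoters, against 49.9% of all. The ETS motif (CCGGAAG, both strands) lay in 22.4%, 15.1% and 3.03%, the YY1 motif (AAGATGG, both strands) in 10.9%, 6.31% and 4.998%, and the E-box (CACGTG) in 12.6%, 9.48% and 4.45%. The TATA box (TATAAA, sense strand, 40 to 20 bases before the start) went the other way, in 1.22%, 1.59% and 4.88%, and CTTT near the start also had its highest share in dim promoters, at 6.20%, 5.92% and 8.67%. The cyclic AMP response element (TGACGTC, both strands) lay in 7.54%, 4.87% and 1.83%. The CCAAT box (both strands) did not follow level, at 41.3%, 37.4% and 39.1%. GC content moved with level too, with a median of 60.3% in middling and 46.7% in dim promoters, and its part in the motif shares was not tested.

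**Figure D4:**
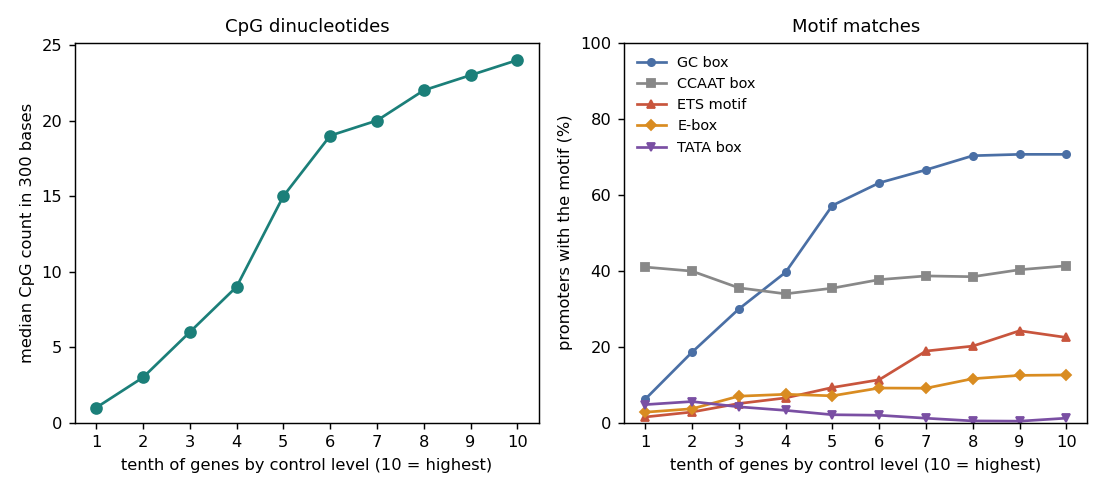
Promoters of 15561 genes, grouped by steps of 10% of all genes by control level (horizontal axis, 10 the highest), with 1468 to 1644 promoters in a group. Left, median number of CpG dinucleotides in 300 bases, which rises from 1 to 24; right, percentage of promoters with each motif, which rises for the GC box from 6.18 to 70.6 and stays between 33.9 and 41.3 for the CCAAT box.

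The gene groups differed in these features. Histone promoters held a CCAAT box in 81.8% of 33 and a TATA box in 15.2%, and DNA replication promoters a CCAAT box in 65.7% of 35, against 38.3% and 2.47% of all promoters for the 2 motifs. Promoters of the wider pluripotency list held a CCAAT box in 1 of 18 and an ETS motif in none, whereas 3 of the 4 state markers, which are not among the 18, held a CCAAT box in the windows printed above. The 18 had a median of 14 CpG, against 15 for all promoters. Odorant receptor entries had a median of 1 CpG. The start region of the lowest odorant receptor with an entry is printed beside the ribosomal starts (RefSeq, build GRCm38.p6, capitals as there).
Olfr299, chr7:86465353-86465432, plus strand: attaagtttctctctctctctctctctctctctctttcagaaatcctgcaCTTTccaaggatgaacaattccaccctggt
Olfr299 read 4.74, 4.73 and 4.71. It holds CTTT near its start as well, which is a match of letters in a dim gene, and no CpG in its 300 bases. The 20 bases after its RefSeq start open with ATG, the start codon. This entry may therefore begin at the coding region, and its window may not be a promoter. How many other receptor entries begin this way was not tested.

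Few genes varied between the 3 control arrays. An SD over 0.25 was found for 47 of 19935 genes, of which 3 were bright, 27 middling and 17 dim. The widest spread among genes above the reference was that of Usp17la, a ubiquitin protease of the short 2-cell-like state, at 7.43, 8.43 and 7.87 (SD 0.51). Usp17ld, of the same family, read 8.11, 8.72 and 8.76. In the list of 2-cell-like genes, of which 6 of 12 were measured, control 1 was lowest for 5 and control 2 highest for 5, and the list means were 8.47, 8.84 and 8.61. Zscan4c, Zscan4d and Zscan4f of this list are not analysed here.

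Among genes above the reference, another 4 of the 10 most variable are typical of macrophages. Wfdc17 read 8.15, 8.37 and 7.53, C1qb, a complement component, 8.88, 9.04 and 8.30, and C3ar1 7.62, 7.61 and 7.09, besides Lyz2 above. All 4 were lowest on control 3, as were 9 of the 11 genes of the macrophage and blood list. On replicate 1 of siRNA 1 the same 4 genes read higher than on any control array: Wfdc17 8.71, C1qb 9.49, C3ar1 8.19 and Lyz2 11.12. The others were Aspn, a matrix protein, Zfp975, the potassium channel Kcnma1 and the predicted gene Gm10785. Aspn was highest on control 3 at 7.89, against 7.36 and 7.27. Replicate 1 of siRNA 1 also read above every control array for Aspn, at 8.15, and for Kcnma1, at 8.97 against at most 8.46. The high values on that array were therefore not particular to the 4 macrophage genes.

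**Figure D5:**
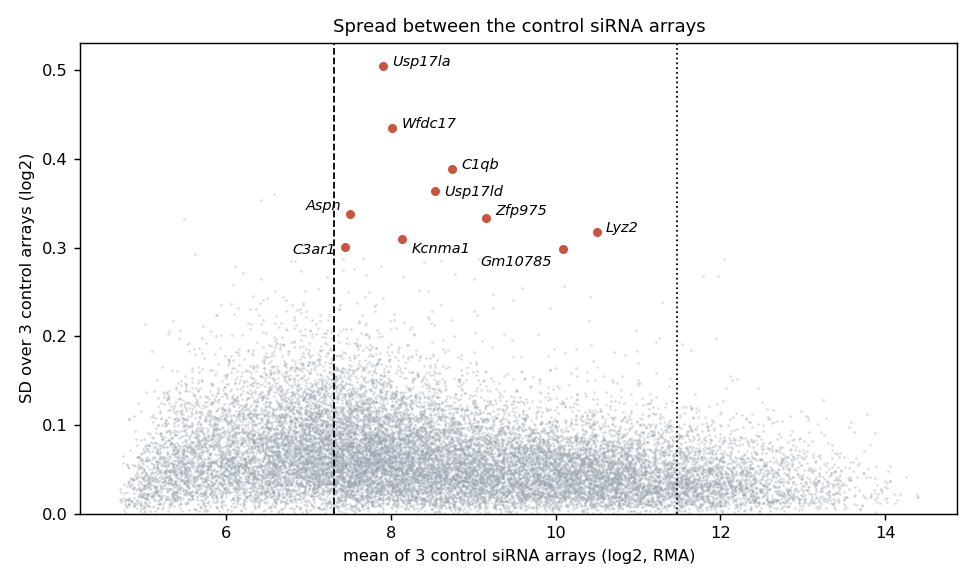
SD over the 3 control siRNA arrays (vertical axis, log2) against their mean (horizontal axis, log2) for 19935 genes in grey, with the 10 most variable genes above the reference in red. The dashed line is the reference and the dotted line the bright limit; Usp17la has the largest SD, 0.51, and Lyz2 is the brightest of the named genes at 10.50.

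The control bands were nearly those of the siRNA arrays. Of the control's bright genes 97.9% were bright by the mean of siRNA 1 and 97.1% by that of siRNA 2, and of its dim genes 98.5% and 99.4% were dim. The limits were set anew for each group. By them 5871 genes were dim with siRNA 1 and 6103 with siRNA 2, against 5764 in the control. A larger dim set can hold more of the control's dim genes, so these shares overstate the likeness. No gene was bright in the control and dim with either siRNA, or the reverse. Of the control's 100 brightest genes 95 were among the 100 brightest with siRNA 1 and 96 with siRNA 2, and 90 were shared by the separate top 100 of all 3 control arrays. The median of the pluripotency list was 12.24 in the control, 12.26 with siRNA 1 and 12.22 with siRNA 2. These are positions side by side, and no difference between groups was tested.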

How the data were processed

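Total RNA of 8 R1 stem cell samples was measured on Affymetrix gene arrays, 1 per sample. The deposited table holds 1 log2 value per probe set and array, computed by the authors using RMA (submitters' processing notes), with version and settings not given in the sources used here. This method subtracts background, makes the arrays' distributions alike and condenses probes into sets, so a shift common to most genes cannot be seen. Symbols came from the platform annotation and may be old; 1605 probe sets with several symbols and 5430 with none were not named. Of the 19935 genes kept, 998 had several probe sets.

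Means and SD were computed over the 3 control arrays with Python 3.11.15 and pandas 2.3.3; no group test was run. Families were found by symbol pattern and lists matched by symbol. The members, lists and named genes were chosen with earlier results of these data known, and 6 family patterns or names were corrected after matching caught genes that were no members. By rule the text names the 30 brightest genes, the state markers, some of the up to 4 highest and 3 lowest members of each family or list and of those in another band, the 10 most variable genes and the 5 highest microRNA genes; others were named after their values were seen. Banding was tested on simulated data. RefSeq accessions of the kept probe set belonged to the named gene for 19081 genes (95.7%) and to no listed gene for 851. Such a match does not show that a probe set reads that gene alone. Genome positions of probe sets were not looked up. Probe sets of processed copies, as of ribosomal proteins, Pcna and Hspa8, could therefore not be told from those of the parent gene. The number of arrays limits the precision. Promoters and microRNAs came from RefSeq tables of build GRCm38.p6, the first entry of each gene.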

Additional observations from a re-analysis of the deposited data

How the results depend on the processing

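The number of genes above the reference was 14171. It ranged from 14026 to 14274 when each control array was left out, was 11561 and 15437 with the reference at the 99th and 90th percentile of odorant receptors, 15869 with vomeronasal and taste receptors as reference and 9967 with the median gene. More than 50% of measured members were bright in 20 families and lists; this was 10 with a bright band of the top 5%, which moves the limit by its construction, 25 with the top 20%, and 19 to 20 when each control array was left out. Of the counts of single families and lists under these and the other settings run, 155 were labelled as moved by over 1.5 times and 2125 were not. The 2125 include counts that a setting could not move, so they overstate how stable the counts were. A bright count cannot change with the reference, and a dim count cannot change with the bright band. Empty counts that stayed empty were among the 2125, and a gain from an empty count was labelled as moved without a ratio. The reference at the median gene moved 38 counts. No paired analysis was possible because these results come from no test. Groups of 3 arrays are too small for a check on single outlying values.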

Other observations

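Probe sets without a single symbol hold signal that was not used for the gene levels above. Of the 1605 probe sets with several symbols, 489 (30.5%) read at or over the bright level, against 2391 (11%) of the 21780 with a single symbol. Of the 5430 without a symbol 299 (5.51%) did so. At or below the reference lay 37.8% of the several-symbol, 28.9% of the single-symbol and 51.8% of the no-symbol probe sets. The several-symbol class includes the probe sets of Gapdh, Actg1 and Rpl3, which no probe set named alone, so the bright band lacks some genes that are known to be abundant in most cells.

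The choice of probe set moved some levels. In the 998 genes with several probe sets the highest and the lowest differed by 0.758 at the median, and by over 1 in 414 (41.5%). Of the 30 brightest genes 18 had several. Predicted gene models made up 11.1% of dim and 0.752% of bright genes. Of 1226 such models 15 were bright, led by Gm4750 at 12.48 and 2610318N02Rik at 12.42.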
